A study of Mus musculus with 16 samples.

Results

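The zinc genes described here are 6 of the 27179 genes in the deposited table: the zinc exporters Slc30a1 and Slc30a2, the zinc importers Slc39a4 and Slc39a8, and the metallothioneins Mt1 and Mt2. They were taken by name, and all 6 were found in the table and passed the filter on low values in every comparison. Slc30a2 was on the list because it had been seen to differ in opposite directions in the changed media of the 2 genotypes. Its values in those contrasts are therefore given as a description, with no test.

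RNA was sequenced from 4 lines of mouse tumour organoids (MTOs), epithelial cultures of intestinal tumour cells kept in drops of basement-membrane extract. The labels call all 4 lines triple mutants, of the genotypes AKP (MTO54 and MTO220) and APT (MTO100 and MTO101), and give Tgfbr2, the receptor without which cells do not respond to TGF-beta, as wild type in the AKP lines. Each line was grown in its changed medium and in full medium, with 2 libraries of each from consecutive passages (16 libraries, 4 per genotype and medium). Full medium contained 50 ng/ml EGF, 100 ng/ml noggin, which blocks BMP signals, and 1 µM galunisertib, which blocks the TGF-beta type I receptor kinase. In TGFb medium, given to the AKP lines only, galunisertib was left out and TGF-beta1 was added (the labels write 5 ng/ul), with EGF and noggin as in full medium. In noEGF medium, given to the APT lines only, EGF was left out, and noggin and galunisertib were kept. Changed media were collected at day 7 and full medium at day 4, so the medium and the 3 extra days cannot be told apart. Each changed medium went to 1 genotype only. In a difference between the 2 responses, genotype and type of medium cannot be told apart either. Each genotype is represented by 2 lines, and nothing in the labels says whether the libraries of a line came from separate cultures beyond their passage, so p-values measure the spread between these libraries.

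Zinc is held inside cells within narrow limits by transporters of opposite direction. Proteins of the SLC30 family (ZnT) move zinc out of the cytosol, across the plasma membrane or into vesicles, and proteins of the SLC39 family (ZIP) move it in. Metallothioneins are small cysteine-rich proteins that bind zinc and copper, and their genes are switched on by the zinc-sensing factor MTF-1 through metal response elements. In the small intestine, SLC39A4 takes up dietary zinc at the apical membrane of enterocytes and SLC30A1 releases it from the cell, while SLC30A2 loads zinc into the secretory granules of Paneth cells.

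Libraries held 17056053 to 22251986 reads, and values below are normalised reads, that is reads divided by the size factor of the library. The summed level of 7 epithelial markers (Epcam, Cdh1, Krt8, Krt18, Krt19, Vil1, Cdx2) lay between 95294 and 227740 normalised reads in all 16 libraries. The sum of 6 fibroblast markers was 108 to 201 normalised reads in TGFb medium and 10.3 to 18.9 in full medium in AKP lines, and 95.4 to 513 in noEGF medium and 13.8 to 157 in full medium in APT lines, with Lum at 0 throughout. The sum of 3 endothelial markers was 47.7 and 39.8 in TGFb medium and 610 and 1251 in full medium in MTO54, and 24.1 to 703 in the other 12 libraries. That of 4 immune markers reached at most 103. The part of other cell types in the values below was not tested. Of the 12 Paneth cell markers, the sum was 189 to 314 normalised reads in AKP lines in TGFb medium and 645 to 5137 in full medium, and 9862 to 18424 in APT lines in noEGF medium and 2695 to 3673 in full medium. The RNA concentration was lowest in the pool 2 libraries from noEGF medium (14.6 ng/µl for MTO100 and 13.2 ng/µl for MTO101).

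The zinc exporter Slc30a2 (chr4:134343046-134354484, GRCm38.p6, plus strand), which loads zinc into vesicles, had the widest range of the 6 genes. In TGFb medium it was at 4.55 and 3.61 normalised reads in MTO54, each from 4 reads, and at 26.9 and 23.8 in MTO220. Full medium gave 546 and 515 normalised reads in MTO54 and 256 and 268 in MTO220. Every TGFb library lay below every full-medium library of the AKP lines, with a wide gap between them. In noEGF medium Slc30a2 was at 3104 and 3342 normalised reads in MTO100 and at 5671 and 5850 in MTO101. Full medium gave 1175 and 1530 in MTO100 and 2854 and 2976 in MTO101. The 2 media did not overlap in the APT lines either, and each APT line was higher in noEGF medium in both pools.

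**Figure D1:**
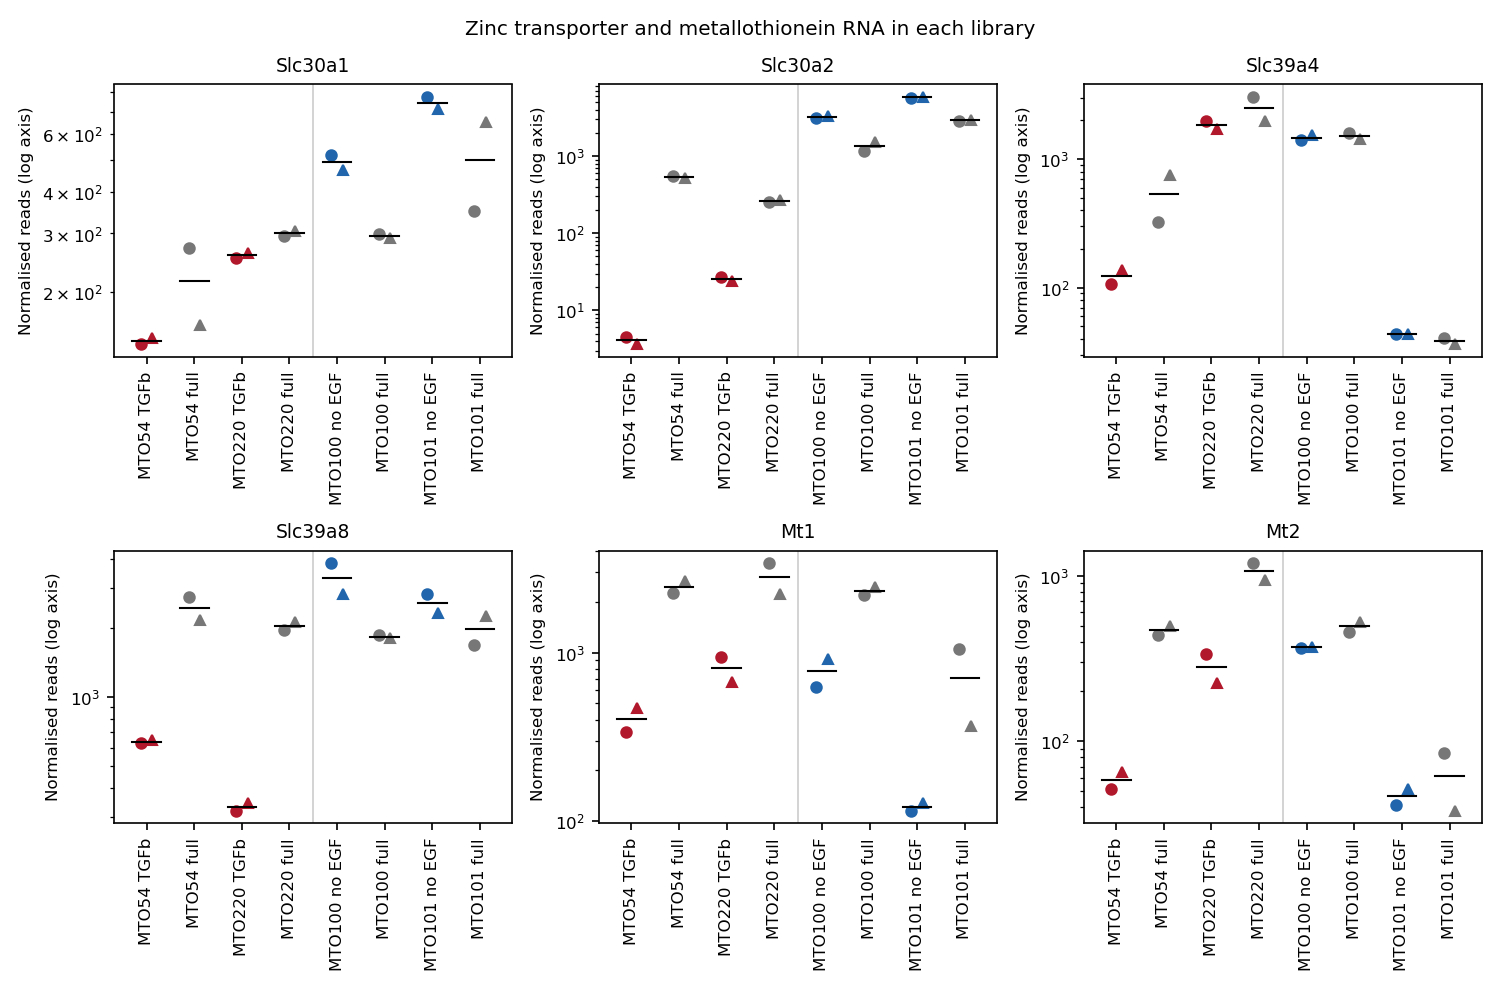
Normalised reads (log axis) of the 6 zinc genes in each library, with lines and media along the horizontal axis, changed medium left of full medium, circles for pool 1, triangles for pool 2 and bars for the mean of the 2. Slc30a2 runs from 3.61 in MTO54 in TGFb medium to 5850 in MTO101 in noEGF medium, and Slc39a4 is at 36.1 to 43.4 in all 4 MTO101 libraries.

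Averaged over libraries, Slc30a2 was at 14.7 ± 12.3 normalised reads in TGFb medium and 396 ± 155 in full medium in AKP lines (SD, n = 4 each). The log2 change, which here and below is a difference of mean log2(normalised reads + 1), was -5.02 ± 0.57 (SE). In APT lines it was at 4492 ± 1470 in noEGF medium and 2134 ± 915 in full medium (SD, n = 4 each), a log2 change of 1.12 ± 0.16 (SE) or 2.18-fold. The difference between the responses of the 2 genotypes was -6.14 ± 0.64 (SE) on the log2 scale. These values are those for which the gene was picked, and the added 1 in the logarithm makes the change in AKP lines smaller than the ratio of the reads.

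The stated reason for the choice was the opposite directions of the responses, not how the 2 lines of a genotype differ. The comparisons of lines draw on the same values, and earlier results of these data were known. Their independence of the choice can therefore not be shown. The log2 change of Slc30a2 in TGFb medium was -3.32 ± 0.28 in MTO220 and -6.72 ± 0.28 in MTO54 (SE, n = 2 libraries per medium). The difference, MTO220 minus MTO54, was 3.39 ± 0.40 (SE), with an adjusted p of 0.00101 by limma, where p-values were adjusted by Benjamini-Hochberg over all genes tested and called under 0.05. Of 13725 genes tested, 8.20% were called in this comparison of responses, 5.49% with a positive and 2.72% with a negative sign. Both lines ended low, but MTO54 started higher in full medium and ended lower in TGFb medium. In full medium MTO220 was at 262 ± 8.41 normalised reads and MTO54 at 531 ± 21.9 (SD, n = 2 each), a log2 difference of -1.01 ± 0.28 (SE, adjusted p = 0.0296). That call was lost when any of 6 of the 8 AKP libraries was left out, with adjusted p up to 0.148, while its value stayed between -1.06 and -0.97.

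In the APT lines Slc30a2 was higher in MTO101 than in MTO100 in full medium, at 2915 ± 86.1 and 1352 ± 251 normalised reads (SD, n = 2 each). The log2 difference was 1.12 ± 0.21 (SE, adjusted p = 0.00366, limma). Its response to noEGF medium was 0.98 ± 0.21 in MTO101 and 1.26 ± 0.21 in MTO100 (SE). The difference between them was -0.28 ± 0.30 (SE, adjusted p = 0.737, limma), with a 95% interval of -0.93 to 0.37. With 2 libraries per line and medium, the data leave room for any difference within that interval.

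Between genotypes in full medium, Slc30a2 was lower in all 4 AKP libraries (256 to 546) than in all 4 APT libraries (1175 to 2976). On the means of the lines, which are the replicates of a genotype, the log2 difference was -2.40 ± 0.54 (SE, 2 lines each), and it missed the threshold (adjusted p = 0.313, limma). No gene was called in that comparison (0.00% of 13898), although 1480 had an unadjusted p under 0.05. On summed reads per line, edgeR called 0 genes and DESeq2 called 740, Slc30a2 among them (log2 difference -2.43, adjusted p = 5.97e-04).

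Paneth cell markers moved with Slc30a2 across the media. In AKP lines 3 of the 12 markers passed the filter, and all 3 fell in TGFb medium (25.7% of all genes tested were called lower), with Defa17, Defa22, Defa26 and Mptx2 at 0 in all 4 TGFb libraries and Mptx2 at 0 in the full-medium libraries too. In APT lines 8 of the 12 passed the filter, and all 8 rose in noEGF medium (26.8% of all genes tested were called higher). A marker could pass the filter through the medium in which it was high, so nothing is read from these counts. Within full medium the order was different: MTO220 had the highest Paneth sums of the full-medium libraries (5137 and 3984) and the lowest Slc30a2 (256 and 268), while MTO54 had the lowest Paneth sums (645 and 722) and 546 and 515 normalised reads of Slc30a2. In bulk RNA, fewer cells of a type and less RNA per cell cannot be told apart, and the part of Paneth cell number in the Slc30a2 values was not tested. Summed markers of other gut cell types also differed between the media, though not in every line or for every marker. The sum of 7 goblet markers was 161 to 231 in TGFb medium and 1487 to 20603 in full medium in AKP lines, and 6010 to 13215 in noEGF medium and 357 to 5435 in full medium in APT lines. All 5 goblet markers tested in TGFb medium were called lower. In noEGF medium 2 of 7 were called higher, 1 lower and 4 not called. Over all genes tested there, 26.8% were called higher and 21.7% lower. Nothing is read from these counts either. That of 5 enteroendocrine markers was 8.61 and 6.65 in TGFb medium and 879 and 1095 in full medium in MTO220, at most 2.71 in either medium in MTO54, and 1310 to 2130 in noEGF medium and 104 to 243 in full medium in APT lines. That of 9 absorptive markers was 15.9 to 36.1 in TGFb medium and 21.8 to 174 in full medium in AKP lines, and 945 to 2038 in noEGF medium and 370 to 1699 in full medium in APT lines.

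**Figure D2:**
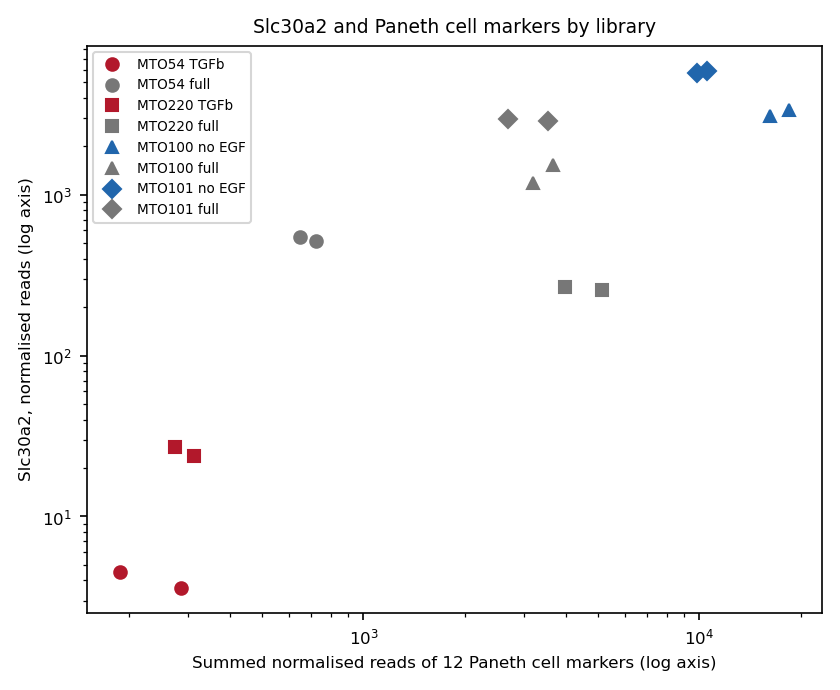
Slc30a2 against the sum of 12 Paneth cell markers, both in normalised reads on log axes, 1 point per library, with a shape for each line and a colour for each medium. The TGFb libraries lie at the lower left and the noEGF libraries at the upper right, while among full-medium libraries MTO220 has the highest marker sums (5137 and 3984) and the lowest Slc30a2 (256 and 268).

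Per kilobase of transcript, Slc30a2 was the most abundant of the 10 SLC30 genes in APT lines, at 1425 ± 466 normalised reads per kb in noEGF medium and 677 ± 290 in full medium (SD, n = 4 each). Next in noEGF medium were Slc30a9 (377 ± 71.4) and Slc30a5 (372 ± 26.2), which supplies zinc to the early secretory pathway; their ranges overlapped, and Slc30a5 was the higher of them in both MTO100 libraries. In full medium the next gene was Slc30a5 (368 ± 53.6), whose range overlapped that of Slc30a2. The spread of Slc30a2 in full medium comes mostly from the gap between the 2 lines. In AKP lines it was at 4.66 ± 3.92 per kb in TGFb medium and 126 ± 49.3 per kb in full medium, where its range overlapped that of Slc30a7 (102 ± 17.7), which loads zinc into the Golgi.

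Slc30a1 (chr1:191906697-191913248, plus strand), the exporter of the plasma membrane and itself a target of MTF-1, moved less. In TGFb medium it was at 139 and 145 normalised reads in MTO54 and at 253 and 262 in MTO220. Its values in full medium were 272 and 159 in MTO54 and 295 and 305 in MTO220. Each TGFb library was below the full-medium library of its own line and pool, but the 2 media overlapped over the AKP lines. The log2 change was -0.39 ± 0.20 (SE), which did not pass the test (adjusted p = 0.135, 95% interval -0.84 to 0.07). It passed only when the pool 2 library of MTO54 in full medium was left out (-0.51, adjusted p = 0.0475).

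In noEGF medium Slc30a1 was at 518 and 467 normalised reads in MTO100 and at 776 and 715 in MTO101. In full medium it was at 299 and 290 in MTO100 and at 350 and 651 in MTO101. The pool 2 library of MTO101 in full medium was far above the other 3 APT libraries in that medium and lay within the range of the noEGF libraries. Slc30a1 rose in noEGF medium, with a log2 change of 0.69 ± 0.20 (SE, adjusted p = 0.0148) or 1.61-fold, and was higher in all 4 pairs of line and pool. The call was lost in each line alone (0.74 with adjusted p = 0.0706 in MTO100, 0.64 with adjusted p = 0.0905 in MTO101) and without the 2 pool 2 libraries of low RNA concentration (0.76, adjusted p = 0.0707). The TGFb response of the AKP lines and the noEGF response of the APT lines differed, by -1.07 ± 0.28 (SE, adjusted p = 0.0124, limma). In full medium Slc30a1 was not called between the lines of a genotype, with log2 differences of 0.53 ± 0.27 for MTO220 minus MTO54 and 0.70 ± 0.28 for MTO101 minus MTO100 (SE). Each was called without 1 library, the first without the pool 1 library of MTO54 in full medium (0.91, adjusted p = 0.0159) and the second without that of MTO101 (1.14, adjusted p = 0.00581).

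The importer Slc39a8 (chr3:135816882-135888572, plus strand), which carries zinc and manganese, was the zinc gene with the firmest change in TGFb medium. It was at 631 and 646 normalised reads in MTO54 and at 318 and 344 in MTO220 in TGFb medium. Its values in full medium were 2736 and 2165 in MTO54 and 1966 and 2120 in MTO220. All 4 TGFb libraries lay far below all 4 full-medium libraries. Slc39a8 fell by 2.28 ± 0.17 on the log2 scale (SE, adjusted p = 7.03e-06) and was 4.84-fold lower. Both lines alone gave the call, at -2.62 ± 0.19 in MTO220 and -1.93 ± 0.19 in MTO54 (SE), and the lines did not differ beyond the threshold in this response (difference -0.69 ± 0.26, adjusted p = 0.146), except without the pool 1 library of MTO54 in full medium (-0.86, adjusted p = 0.0346).

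In noEGF medium Slc39a8 was at 3829 and 2808 normalised reads in MTO100 and at 2815 and 2327 in MTO101. The full-medium values were 1857 and 1802 in MTO100 and 1691 and 2257 in MTO101. The media did not overlap, though the gap between the lowest noEGF library (2327) and the highest full-medium library (2257) was small. Slc39a8 rose by 0.62 ± 0.18 on the log2 scale (SE, adjusted p = 0.0156) or 1.53-fold. The call was lost in MTO101 alone (0.39 ± 0.24, adjusted p = 0.207) and, narrowly, without the pool 1 library of MTO100 in either medium (adjusted p = 0.0507 each).

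Slc39a8 thus had opposite signs in the 2 media, like Slc30a2, and the difference between the responses was -2.89 ± 0.25 on the log2 scale (SE, adjusted p = 1.74e-06). In this comparison of responses 22.2% of 15087 genes were called, 11.7% with a negative sign. Of the 5 zinc genes tested in it, 4 were called, all with a negative sign: Slc30a1, Slc39a4, Slc39a8 and Mt2. In full medium Slc39a8 was near the same level in all lines, between 1691 and 2736 normalised reads. Its log2 difference was -0.25 ± 0.19 for MTO220 minus MTO54, 0.09 ± 0.24 for MTO101 minus MTO100 and 0.24 ± 0.18 for AKP minus APT (SE), and none passed the test. Per kilobase, Slc39a8 was at 137 ± 50.4 normalised reads in TGFb medium and 636 ± 95.4 in full medium in AKP lines, and at 834 ± 179 in noEGF medium and 538 ± 69.8 in full medium in APT lines (SD, n = 4 each). In full medium its mean was below those of Slc39a7, which releases zinc from the endoplasmic reticulum, and Slc39a1 in every line. It was also below that of Slc39a4 in MTO220 (578 and 915 per kb) and MTO100 (518 and 551), and above it in MTO54 (694 and 195) and MTO101 (559 and 13.9).

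The importer Slc39a4 (chr15:76612383-76618506, minus strand) takes up dietary zinc in the gut, and its loss in people causes the zinc deficiency disease acrodermatitis enteropathica. It differed more between lines than between media. In TGFb medium it was at 107 and 138 normalised reads in MTO54 and at 1989 and 1706 in MTO220. The full-medium values were 322 and 748 in MTO54 and 3045 and 1989 in MTO220. Each line was lower in TGFb medium in both pools, but the media overlapped over the lines, and in MTO220 the pool 1 TGFb library and the pool 2 full-medium library were level. Over both lines Slc39a4 fell by 1.21 ± 0.35 on the log2 scale (SE, adjusted p = 0.0155).

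The fall was not called in MTO220 alone, at -0.42 ± 0.36 (SE, adjusted p = 0.344), and was called in MTO54 alone, at -2.01 ± 0.36 (adjusted p = 0.00185). The difference between the lines, 1.59 ± 0.50 (SE), did not pass the test with limma (adjusted p = 0.0822), but did with DESeq2 (1.67, adjusted p = 0.00762) and, by limma, without the pool 1 library of MTO54 in full medium (2.20, adjusted p = 0.00623). The call over both lines was also lost without the pool 1 library of MTO220 in full medium (adjusted p = 0.0554) or of MTO54 in TGFb medium (adjusted p = 0.0526).

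In the APT lines Slc39a4 was at 1408 and 1532 normalised reads in MTO100 and at 43.4 and 43.4 in MTO101 in noEGF medium. In full medium it was at 1601 and 1431 in MTO100 and at 40.3 and 36.1 in MTO101. The 2 lines were far apart in either medium, and the media overlapped within MTO100. The log2 change in noEGF medium was 0.07 ± 0.17 (SE, adjusted p = 0.764), with a 95% interval of -0.31 to 0.44. The TGFb response of the AKP lines and the noEGF response of the APT lines differed by -1.28 ± 0.42 (SE, adjusted p = 0.0395, limma). That call was lost when any of 11 of the 16 libraries was left out (adjusted p up to 0.0854). It was also lost with edgeR on the same size factors (adjusted p = 0.0516) and without the 2 pool 2 noEGF libraries (adjusted p = 0.125).

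The gap between lines was the firmest difference of Slc39a4. In full medium MTO101 was 38.7-fold lower than MTO100, a log2 difference of -5.27 ± 0.23 (SE, adjusted p = 6.67e-07), where 14.1% of 14373 genes were called, 7.97% with a negative and 6.16% with a positive sign. MTO220 was 5.00-fold higher than MTO54, a log2 difference of 2.32 ± 0.36 (SE, adjusted p = 0.00106), where 17.8% of 13725 genes were called, 8.67% with a positive and 9.17% with a negative sign. Both calls held without any single library. With lines so far apart within each genotype, the log2 difference between AKP and APT in full medium, 2.18 ± 1.97 (SE), had a 95% interval of -3.12 to 7.47.

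**Figure D3:**
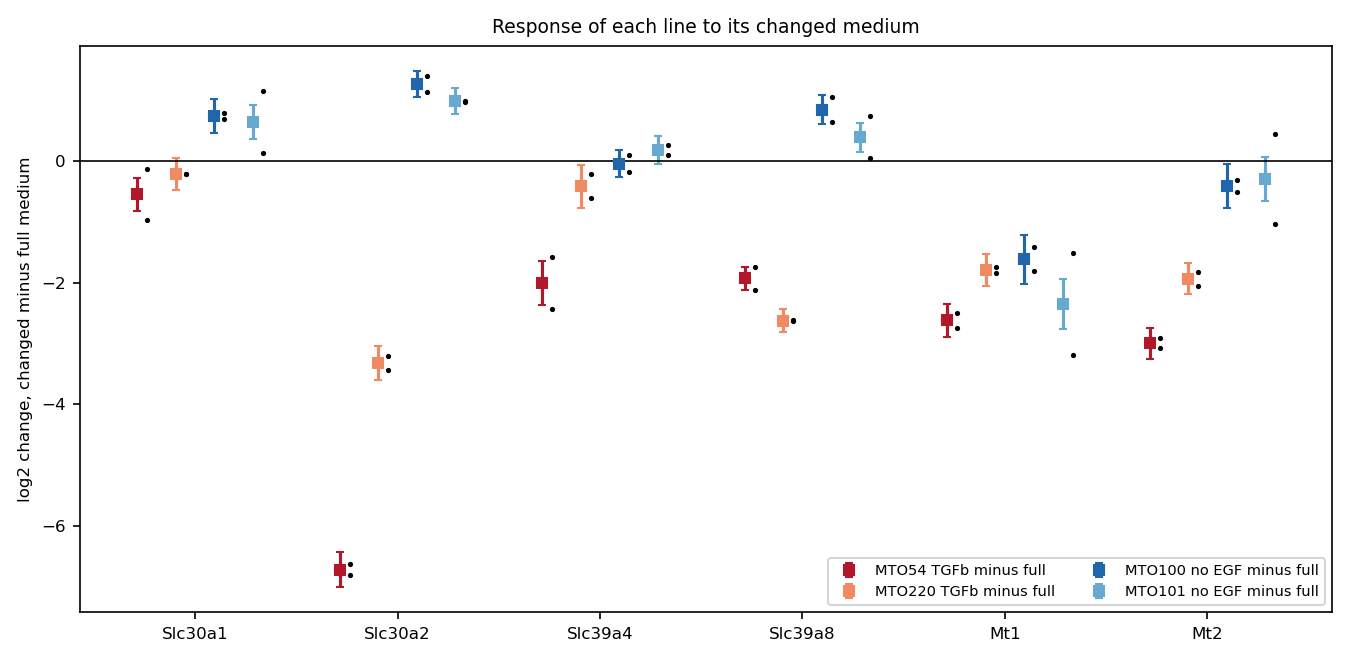
Log2 change of each zinc gene between changed and full medium in each line (squares, with limma's standard error as bars) and in each pair of line and pool (small points). Slc30a2 lies at -6.72 in MTO54 and -3.32 in MTO220, and above 0 in both APT lines, while Mt1 is below 0 in all 4 lines.

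The metallothionein genes Mt1 (chr8:94178883-94180327) and Mt2 (chr8:94172618-94173567) lie next to each other on the plus strand and are the classical targets of MTF-1. Sequence around their starts is shown because both genes were called lower in TGFb medium and Mt1 but not Mt2 in noEGF medium. RefSeq start windows of 300 bases (250 before and 50 after the start, GRCm38.p6) were searched on both strands for the core of the metal response element, TGCACNC or TGCGCNC. Of 32851 such windows, 25.7% held at least 1 match, 7.11% at least 2, 1.97% at least 3 and 0.517% at least 4. Mt2 held 4 matches and Mt1 held 3, Slc30a1 and Slc30a2 held 2 each, and of the 2 windows of Slc39a8 one held none and the other 1. No window was at hand for Slc39a4. The counts hold for the RefSeq starts, at position 134343466 of chromosome 4 for Slc30a2 and 94172618 of chromosome 8 for Mt2; the principal GENCODE M21 transcripts start at 134343206 and 94172664. The 250 bases before the Mt2 start (chr8:94172368-94172617, plus strand) follow with their matches in capitals, and the fourth match of Mt2 lies just after the start, at chr8:94172612-94172638. For Mt1 and Slc30a1, stretches of 27 bases around each match are given on the plus strand, at chr8:94179056-94179082, chr8:94179081-94179107 and chr8:94179099-94179125 for Mt1 and at chr1:191906728-191906754 and chr1:191906801-191906827 for Slc30a1. The RefSeq starts of these windows were at 94179089 for Mt1 and 191906781 for Slc30a1. The first match of each gene lies before that start, and its other matches after it. The gene spans given above begin before these starts and before all of these matches. GENCODE M21 also lists starts outside the principal transcripts, at 94179211 and 94179241 for Mt1 and at 191907256 for Slc30a1. All of these matches lie before those starts, around which no window was searched. Those of Slc30a1 and 2 of those of Mt2 match on the minus strand and so appear as the reverse complement. A match is a description of these letters and was not tested for binding.
Mt2 before the start: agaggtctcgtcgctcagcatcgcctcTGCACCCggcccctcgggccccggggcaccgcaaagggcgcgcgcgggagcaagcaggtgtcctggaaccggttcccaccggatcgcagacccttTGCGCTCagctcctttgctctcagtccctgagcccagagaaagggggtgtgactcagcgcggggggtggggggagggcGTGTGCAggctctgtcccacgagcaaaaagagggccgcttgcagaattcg
Mt2 across the start: aattcgggtcGTGCGCAggcccagggg
Mt1 match 1: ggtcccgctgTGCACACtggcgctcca
Mt1 match 2: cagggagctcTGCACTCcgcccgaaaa
Mt1 match 3: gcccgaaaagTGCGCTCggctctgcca
Slc30a1 match 1: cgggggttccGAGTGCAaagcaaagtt
Slc30a1 match 2: cctccgggccGAGCGCAgtcgccgcgg

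In TGFb medium Mt1 was at 336 and 468 normalised reads in MTO54 and at 945 and 669 in MTO220. In full medium Mt1 was at 2254 and 2658 in MTO54 and at 3398 and 2234 in MTO220. Mt2 was at 51.1 and 65.1 in MTO54 and at 336 and 225 in MTO220 in TGFb medium, and at 437 and 498 in MTO54 and at 1187 and 938 in MTO220 in full medium. For both genes all TGFb libraries lay below all full-medium libraries.

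Mt1 fell by 2.21 ± 0.23 on the log2 scale in TGFb medium (SE, adjusted p = 4.39e-05), and Mt2 fell by 2.47 ± 0.25 (SE, adjusted p = 3.76e-05). Mt1 was 4.62-fold lower and Mt2 5.52-fold lower. Both were called in each line alone, at -1.79 for Mt1 and -1.94 for Mt2 in MTO220 and at -2.62 for Mt1 and -2.99 for Mt2 in MTO54. The differences between the lines, 0.83 ± 0.37 for Mt1 and 1.06 ± 0.36 for Mt2 (SE), did not pass the test. Of the 5 zinc genes tested in TGFb medium, 4 were called, all lower, where 52.6% of 13725 genes were called and 25.7% were called lower. Since Slc30a2 was picked on this contrast, the 2 shares are set side by side and nothing is read from them.

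In noEGF medium Mt1 was at 628 and 921 normalised reads in MTO100 and at 114 and 127 in MTO101. In full medium Mt1 was at 2203 and 2467 in MTO100 and at 1054 and 364 in MTO101. Within each line the noEGF libraries were the lower ones, and the media overlapped only across lines. Mt1 fell by 1.98 ± 0.30 on the log2 scale (SE, adjusted p = 4.00e-04) and was 3.95-fold lower, with calls in MTO100 alone (-1.61) and in MTO101 alone (-2.35).

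Mt2 was not called in noEGF medium. In noEGF medium it was at 367 and 372 normalised reads in MTO100 and at 41.3 and 51.7 in MTO101. In full medium it was at 459 and 528 in MTO100 and at 85.3 and 37.8 in MTO101. It was lower in noEGF medium in 3 of 4 pairs of line and pool, with a log2 change of -0.35 ± 0.26 (SE, adjusted p = 0.273) and a 95% interval of -0.92 to 0.21. Without the pool 2 library of MTO101 in full medium it passed the test (-0.60, adjusted p = 0.0390). Of the 5 zinc genes tested in noEGF medium, Slc30a1 and Slc39a8 were called higher and Mt1 lower, where 48.5% of 14373 genes were called, 26.8% higher and 21.7% lower. Again nothing is read from the shares, as Slc30a2 was picked on this contrast.

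The TGFb response of the AKP lines and the noEGF response of the APT lines differed for Mt2, by -2.11 ± 0.37 on the log2 scale (SE, adjusted p = 8.12e-04, limma). For Mt1 the difference was -0.22 ± 0.42 (SE, adjusted p = 0.752), with a 95% interval of -1.12 to 0.67. Mt1 was the only one of the 6 genes that was lower in the changed medium in all 8 pairs of line and pool, 4 in each genotype.

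The ratio of Mt1 to Mt2 reads does not depend on the scaling of the library. In noEGF medium there were 1.71 and 2.48 Mt1 reads per Mt2 read in MTO100 and 2.77 and 2.46 in MTO101. In full medium there were 4.80 and 4.67 in MTO100 and 12.4 and 9.61 in MTO101. All noEGF libraries were below all full-medium libraries, and the 2 lines overlapped in noEGF medium but lay apart in full medium. The mean ratio was 2.36 ± 0.45 in noEGF medium and 7.86 ± 3.78 in full medium (SD, n = 4 each), a log2 difference of -1.63. An exact two-sided permutation test within lines gave p = 0.0556, the smallest that its 36 assignments allow.

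In the AKP lines the ratio was 6.58 and 7.19 in MTO54 and 2.81 and 2.97 in MTO220 in TGFb medium. In full medium it was 5.16 and 5.34 in MTO54 and 2.86 and 2.38 in MTO220. The lines were apart in both media, and the media were close within a line. The mean ratio was 4.89 ± 2.32 in TGFb medium and 3.93 ± 1.53 in full medium (SD, n = 4 each; p = 0.111, same exact permutation test). The ratio compares reads, and a change in it shows only that the 2 genes changed unequally.

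**Figure D4:**
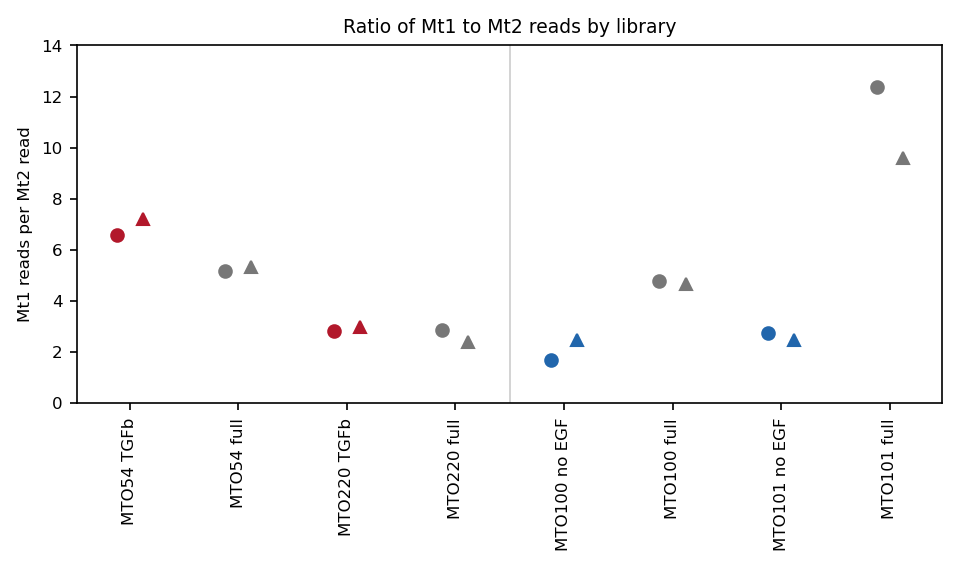
Mt1 reads per Mt2 read in each library (linear axis from 0), with lines and media along the horizontal axis, circles for pool 1 and triangles for pool 2. The 4 noEGF libraries lie between 1.71 and 2.77 and the 4 APT libraries in full medium between 4.67 and 12.4, while the AKP libraries lie between 2.81 and 7.19 in TGFb medium and between 2.38 and 5.34 in full medium.

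Both metallothioneins also differed between lines of one genotype in full medium. Mt2 was higher in MTO220 than in MTO54 (log2 difference 1.18 ± 0.26, adjusted p = 0.00870), a call lost without the pool 1 library of MTO220 in full medium (1.01, adjusted p = 0.0814). Mt1 did not pass that test (0.17 ± 0.26). In MTO101, compared with MTO100, Mt2 had a log2 difference of -3.09 ± 0.36 (adjusted p = 1.54e-04) and Mt1 of -1.91 ± 0.41 (adjusted p = 0.00810; all SE, limma). The call on Mt1 was lost without either library of MTO100 in full medium (adjusted p = 0.0521 and 0.0741), and without the pool 2 library of MTO101 in full medium its value was -1.14 (adjusted p = 0.0112). Of the 6 zinc genes, 3 were called between MTO220 and MTO54 (17.8% of all genes tested) and 4 between MTO101 and MTO100 (14.1% of all genes tested). Slc39a4, Slc30a2 and Mt2 were called in both pairs of lines.

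In the response to noEGF medium, none of the 6 genes differed between MTO101 and MTO100 by limma, edgeR or DESeq2, and none had an unadjusted limma p under 0.05, where 2.34% of 14373 genes were called, 1.09% with a positive and 1.26% with a negative sign. Without the pool 2 library of MTO101 in full medium, which held 651 normalised reads of Slc30a1 and 364 of Mt1, Mt1 was called (difference -1.50, adjusted p = 0.0260).

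Of the other 23 genes, which are the rest of the same families and the factor Mtf1, 16 passed the filter in TGFb medium, and 3 rose, 4 fell and 9 were not called. Over all genes tested 27.0% were called higher and 25.7% lower. The 16 genes had a median log2 change of -0.04, against 0.02 over all genes tested. Slc30a9 rose by 1.53 ± 0.17 (SE), to 6319 ± 3595 normalised reads in TGFb medium against 2471 ± 1813 in full medium (SD, n = 4 each). It acts on zinc in mitochondria. Slc39a6, an importer linked to cell migration in zebrafish, rose by 1.06 ± 0.20, to 1369 ± 410 against 645 ± 135. Mt3, the metallothionein best known from brain, fell by 0.91 ± 0.30, to 20.0 ± 5.86 against 38.7 ± 12.4, and Slc39a11 fell by 0.90 ± 0.16, to 348 ± 108 against 669 ± 266. The other called genes, named after their values were seen, were Slc39a13 (0.65), which rose, and Slc30a4 (-0.61) and Slc39a9 (-0.41), which fell. Mtf1 was not called (-0.07 ± 0.15). Mt1, Mt2 and Mt3 were thus all called lower, while SLC39 genes were called in both directions.

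In noEGF medium 19 of the 23 passed the filter, and 5 rose, 1 fell and 13 were not called, where 26.8% of all genes tested were called higher and 21.7% lower. The 19 genes had a median log2 change of 0.16, against 0.08 over all genes tested. Slc39a13, an importer with known roles in connective tissue, rose by 0.89 ± 0.18 (SE), to 444 ± 90.7 normalised reads in noEGF medium against 236 ± 21.6 in full medium (SD, n = 4 each). Slc39a14, an importer of zinc, manganese and iron, fell by 0.86 ± 0.21, to 414 ± 70.5 against 761 ± 180. Slc39a2 rose by 2.02 ± 0.45 at low levels, 20.9 ± 12.3 against 3.95 ± 1.34. It stayed below 10 in every full-medium library and so passed the filter only through its noEGF libraries. A gene that low in full medium could enter the test only by being higher in noEGF medium. Nothing is read from the call on Slc39a2 or from its place among the 5 that rose. Slc30a9 (0.72) and Slc39a6 (0.55) rose as well and were named after their values were seen. Mtf1 was again not called (0.18 ± 0.17).

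Mt4, a metallothionein of stratified epithelia, was called higher in noEGF medium (1.44 ± 0.52), with different values in the 2 lines. In MTO100 it was at 355 and 493 normalised reads in noEGF medium and at 68.9 and 74.0 in full medium, and in MTO101 at 7.41 and 9.22 in noEGF medium and at 13.8 and 2.58 in full medium. Mt3 was not called over both lines (-0.11 ± 0.62): in MTO100 it was at 916 and 1393 in noEGF medium and at 313 and 459 in full medium, and in MTO101 at 8.47 and 24.9 in noEGF medium and at 88.7 and 31.8 in full medium. So in MTO100 Mt3 and Mt4 were higher in the medium in which Mt1 was lower, in both pools. Per kilobase, Mt1 led the 4 metallothioneins in AKP lines in both media and in APT lines in full medium (2772 ± 1796). In noEGF medium the order differed between the lines. Mt3 was at 1709 and 2598 per kb and Mt1 at 1144 and 1677 in MTO100, and Mt3 was at 15.8 and 46.5 and Mt1 at 208 and 232 in MTO101.

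**Figure D5:**
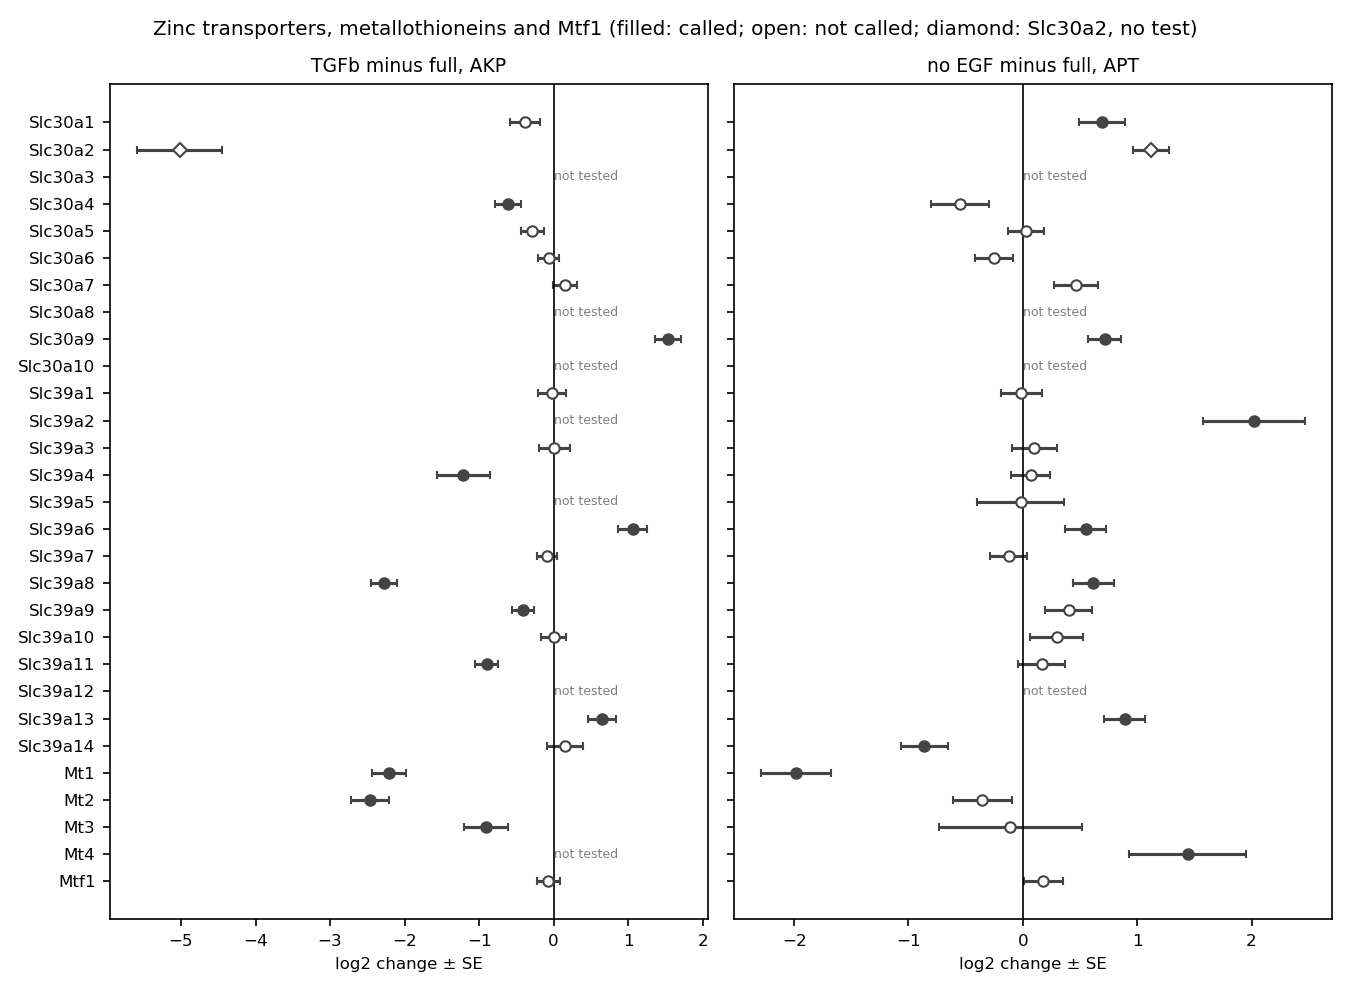
Log2 change (limma, bars show the standard error) of the SLC30, SLC39 and metallothionein genes and Mtf1 in TGFb medium in AKP lines (left) and in noEGF medium in APT lines (right), filled where called and open where not. Slc30a2 (diamond) is a description with no test, at -5.02 and 1.12, and Mt1 is near -2 in both panels (-2.21 and -1.98).

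The genes left out by the filter in AKP lines were Slc30a3, Slc30a8, Slc30a10, Slc39a2, Slc39a5, Slc39a12 and Mt4, and in APT lines Slc30a3, Slc30a8, Slc30a10 and Slc39a12. None of the 4 left out in both exceeded 9.69 normalised reads in any library. Other genes linked to MTF-1 (Gclc, Selenow, Slc39a10 and Mtf1 itself tested) gave 0 calls of 4 in either medium by limma. Over all genes tested, 52.6% were called in TGFb medium and 48.5% in noEGF medium. With 4 genes nothing is read from this count, and the activity of MTF-1 was not tested. Gclc, a glutathione synthesis enzyme, had log2 changes of -0.37 ± 0.21 in TGFb medium and -0.29 ± 0.18 in noEGF medium, and none of the 4 had an unadjusted p under 0.05.

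Copper and iron genes were counted as other metal genes. In TGFb medium 4 of 12 tested rose and 2 fell (27.0% and 25.7% over all genes tested), led by the iron exporter Slc40a1 (2.51 ± 0.18) and the copper transporter Slc31a2 (1.91 ± 0.30). In noEGF medium 3 of 13 rose and 3 fell (26.8% and 21.7% over all genes tested), led by Slc31a2 (1.69 ± 0.19) and Slc40a1 (1.15 ± 0.19). Glucocorticoid targets were counted because metallothionein genes also answer to glucocorticoids. In TGFb medium 3 of 6 rose, with Sgk1, a kinase, at 3.13 ± 0.18, and 3 fell, with the chaperone Fkbp5 at -0.99 ± 0.22, where 52.6% of all genes tested were called in either direction. In noEGF medium Klf9, a transcription factor, rose (0.67 ± 0.24), Fkbp5 fell (-0.77 ± 0.17) and 4 were not called, where 48.5% of all genes tested were called.

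Over the 8 means of line and medium, the 6 genes formed 2 loose groups. Pearson's r of log2 values was 0.92 between Slc39a4 and Mt2 and 0.88 between Mt1 and Mt2, and 0.85 both between Slc30a1 and Slc30a2 and between Slc30a2 and Slc39a8. Between Slc30a2 and Mt1 it was -0.08. These 8 points share lines and media, so r is a description. Of 15087 genes, those nearest to Slc30a2 were Kcnh3 (r = 0.98), Ube2l6 (0.98) and Sh3gl2 (0.97). Kcnh3, a potassium channel gene, averaged 18.7 normalised reads in TGFb medium and 172 in full medium in MTO220, and 684 in noEGF medium and 353 in full medium in MTO101.

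The genes nearest to Mt1 were Tcf24, Cdh17 and Foxa3 (r = 0.99, 0.98 and 0.97). Cdh17, the intestinal cadherin, averaged 652 in TGFb medium and 6168 in full medium in MTO54, and 121 in noEGF medium and 736 in full medium in MTO101. Those nearest to Mt2 were Cldn2, Cpd and Klk10 (0.99, 0.97 and 0.96), where Cldn2, a pore-forming claudin, averaged 143 in TGFb medium and 2466 in full medium in MTO220. Nearest to Slc39a4 were Tpm2, Arhgap27 and Mpzl3 (0.97, 0.96 and 0.96), to Slc39a8 Smtnl2, Abo and Stx18 (0.99, 0.98 and 0.97), and to Slc30a1 Mcf2l, Tada2a and Cnst (0.99, 0.99 and 0.98). No test was made of these likenesses.

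The libraries carry no strand. GENCODE M21 places genes of the opposite strand over Mt2, Slc30a1 and Slc39a8, and the same-strand genes Gm43429 and Gm43428 over Slc39a8. Reads of such genes could not be told apart by strand from those of the zinc genes. It places no gene over Slc30a2, Slc39a4 or Mt1.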

How the data were processed

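All 16 libraries were used. The full genotype of the lines is not reported here. Per the labels' protocols, cells were lysed in Trizol, RNA was cleaned on a column and selected for poly(A), and libraries came from a strand-blind kit with 9 to 10 PCR cycles. The submitters' processing notes list DESeq2 1.22.1, STAR 2.3.0e and mm10 without roles. The annotation and counting program are not given in the sources used here. The table the authors deposited holds signal values, read counts scaled by a size factor per library: 100% of values were whole multiples of the library's step within 0.001 (largest deviation 5.77e-05). The recovered reads gave the depth and the count tests. Depth limits precision mainly for genes with few reads, and PCR copies were not marked.

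Symbols came from RefSeq (GRCm38.p6) for 25275 IDs (93.0%), and 1904 were tested unnamed. Lengths are those of GENCODE M21 principal transcripts. Log2(value + 1) was tested with limma 3.58.1 (trend, robust; R 4.3.3) on genes reaching 10 in 4 or more libraries of the fit (between genotypes, a mean reaching 10 in 2 or more lines). Tests were two-sided, with Benjamini-Hochberg adjustment over all genes tested and calls under 0.05. Media were compared within genotype with line as a term, and responses as interactions. Alternatives were edgeR 4.0.16 and DESeq2 1.42.0 on recovered reads, pseudocounts of 0.5 and 5, other scalings, no filter, each line alone and leaving out each library. The scripts were tested on simulated data.

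The labels give 1 pool to both media of a line at a given passage, so the pools pair libraries. Across 15087 genes, the pool 2 minus pool 1 deviations of the 2 media had correlations of 0.0385 in MTO54, 0.171 in MTO220, 0.174 in MTO100 and 0.127 in MTO101. The members, the gene lists and the naming rules were chosen with earlier results of these data known. The rules name, per medium, the 4 called zinc genes of largest change outside the 6, up to 2 genes of smallest p per other list, and the 3 most similar genes per member.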

Additional observations from a re-analysis of the deposited data

Results flagged for a closer look

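Slc30a1 in full medium in the APT lines held 1 library far from the others: MTO101 in pool 2 had 651 normalised reads, against 290 to 350 in the other 3. Of 24 groups of 4 libraries examined this was the only one with such a gap. The rule marks about 1 in 20 groups by chance only if all 4 values share 1 distribution. Each group here joined 2 lines, so that rate need not hold. Without that library the change of Slc30a1 in noEGF medium was called as before, and the same library also held the lowest Mt1 (364) of the 4.

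The TGFb response of Slc30a2 differed between the AKP lines, by 3.39 on the log2 scale for MTO220 minus MTO54 (adjusted p = 0.00101, limma), as given above. That test draws on the values for which the gene was picked. Slc30a2 was lower in TGFb medium in 4 of 4 pairs of line and pool. The sum of 12 Paneth markers was 276 and 314 in TGFb medium and 5137 and 3984 in full medium in MTO220, and 189 and 287 in TGFb medium and 645 and 722 in full medium in MTO54.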

How the results depend on the processing

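Of 924 values of the 6 genes under an alternative, 859 counted as unchanged. Where a test was made, this means that direction and side of the threshold were kept. Slc30a2 had no test between media or between the AKP and APT responses. There it means the same direction and a shift below the SD of its changes over pairs of line and pool. Between the AKP and APT responses that SD was taken over the noEGF pairs only. In TGFb medium the SD is wide because the lines differ. The values of MTO54 alone (-6.72) and MTO220 alone (-3.32) therefore both counted as unchanged from -5.02. The falls of Slc39a8, Mt1 and Mt2 in TGFb medium, of Mt1 in noEGF medium, and the lower Slc39a4 and Mt2 in MTO101 than in MTO100 in full medium were called under every alternative run. Slc30a1, Slc39a8 and Mt2 between the AKP and APT responses, and Slc39a4 between MTO220 and MTO54 in full medium, also stayed called. So did Slc30a2 in the TGFb response of MTO220 against MTO54 and, close to the threshold, in MTO101 against MTO100 in full medium. Both comparisons draw on the values for which Slc30a2 was picked, so nothing is read from their staying called. Adding the pool or the pair of line and passage as a replicate block changed no call of the 6 genes (4 of 5 called in TGFb medium, 3 of 5 in noEGF medium). Between genotypes in full medium 1 of the 6 genes was called by DESeq2 (0 otherwise), where all genes gave 740 calls against 0. In noEGF medium 1 of 5 was called in MTO101 alone. For the TGFb response of MTO220 against MTO54, 2 were called by DESeq2 and 1 to 3 when a library was left out. Between MTO220 and MTO54 in full medium 1 to 3 were called when a library was left out, and for the noEGF response of MTO101 against MTO100 0 to 1. Values with a reversed sign were those of genes not called, and the cause was not tested. For Slc39a4 in noEGF medium these were -0.0015 with edgeR on the same size factors, -0.012 with DESeq2 and -0.043 in MTO100 alone. For the noEGF response of Mt2 in MTO101 against MTO100 they were -0.0013 with edgeR and TMM, -0.031 without the 2 noEGF libraries of pool 2, an alternative chosen after seeing the data, and -0.46 to 0.69 when a library was left out. The same comparison gave -0.55 to 0.35 for Slc30a1 and -1.50 to 0.030 for Mt1 when a library was left out. Leaving out a library also gave -0.60 to 0.0089 for Mt1 between the responses of AKP and APT, -0.13 to 0.47 for Mt1 in MTO220 against MTO54 in full medium, -0.11 to 0.30 for Slc39a8 in MTO101 against MTO100 in full medium, and -0.055 to 0.72 for Slc30a1 in the TGFb response of MTO220 against MTO54.

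Counts over all genes moved by more than 1.5 times in MTO54 alone in TGFb medium (4535 against 7226), in MTO100 alone in noEGF medium (4312 against 6969), and without the 2 noEGF libraries of pool 2 (3804 against 6969 in noEGF medium, 2133 against 3343 between responses, 1 against 337 between the APT responses). They also moved on leaving out 1 library, to as low as 1375 against 2449 (MTO220 against MTO54), 1331 against 2031 (MTO101 against MTO100), 343 to 2384 against 1126 (AKP responses) and 80 to 982 against 337 (APT responses, where DESeq2 gave 637 and library-total scaling 223). Library-total scaling moved the median of all genes by 0.12 in TGFb medium and 0.23 in noEGF medium.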
